A study of Mus musculus with 57 samples.

Results

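Transcripts of 6 genes of the T helper 1 (Th1) programme were followed in 56 single mouse T helper 2 (Th2) cells. The genes were chosen by name from the table of 10565 genes, where they are listed as il12rb1, il12rb2, stat4, runx3, cxcr3 and eomes, and all 6 were found. They lie on 6 different chromosomes in the RefSeq annotation. The cells began as CD4+ T cells of wild-type C57BL/6 mice aged 8 weeks, taken from spleen. These were activated through CD3 and CD28 with interleukin-4 and an antibody that blocks interferon gamma, given interleukin-2 on day 2, cultured for 5 days in all and then restimulated through CD3 and CD28. For sequencing, cells were isolated one by one on a microfluidic chip (Fluidigm C1). A pooled sample of 10000 cells was not analysed here.

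Th1 cells arise when interleukin-12 binds a receptor built of the chains Il12rb1 and Il12rb2, which activates the transcription factor Stat4. Runx3 and Eomes are further transcription factors of cells that make interferon gamma, and both are also prominent in CD8 T cells and natural killer cells. Cxcr3 is the chemokine receptor that brings Th1 cells to sites of interferon-driven inflammation. Under interleukin-4 the opposing regulator Gata3 is induced, and in mouse cells it is known for lowering Il12rb2 and Stat4. Il12rb1 and Runx3 have roles outside the Th1 fate as well, since Il12rb1 also forms the interleukin-23 receptor.

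The labels tie no cell to an animal or a culture, so the 56 cells count as 1 sample, and no test between cells was made. The values are TPM, transcript levels scaled for gene length and for the cell's total, which the authors rounded to whole numbers. Detection of a gene means 1 TPM or more. The sequencing depth per cell is unknown, and a value of 0 can be a lost transcript. Shares of cells carry exact Clopper-Pearson 95% intervals, which cover counting error only. The cells fall into 5 numbered sets, T1 to T5, of 8 to 12 cells, whose meaning the labels do not give. Between 2679 and 8396 genes were detected per cell. Cell T3_5 had 8396, T1_6 had 6983, and in T3_2 the single gene Mtrnr2l took 20.1% of all TPM. The Th2 regulator Gata3 was at 55 to 2178 TPM (median 818) in 56 of 56 cells. The T cell receptor component Cd3d was also in all 56, and Cd4 was in 37. The 11 Th2 cytokines were in 13 to 55 cells each, and 16 Th2 regulators and receptors, including Gata3, in 13 to 56. No Th1 culture or earlier time is in the table, so whether these transcripts are left over from an earlier state was not tested.

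**Figure D1:**
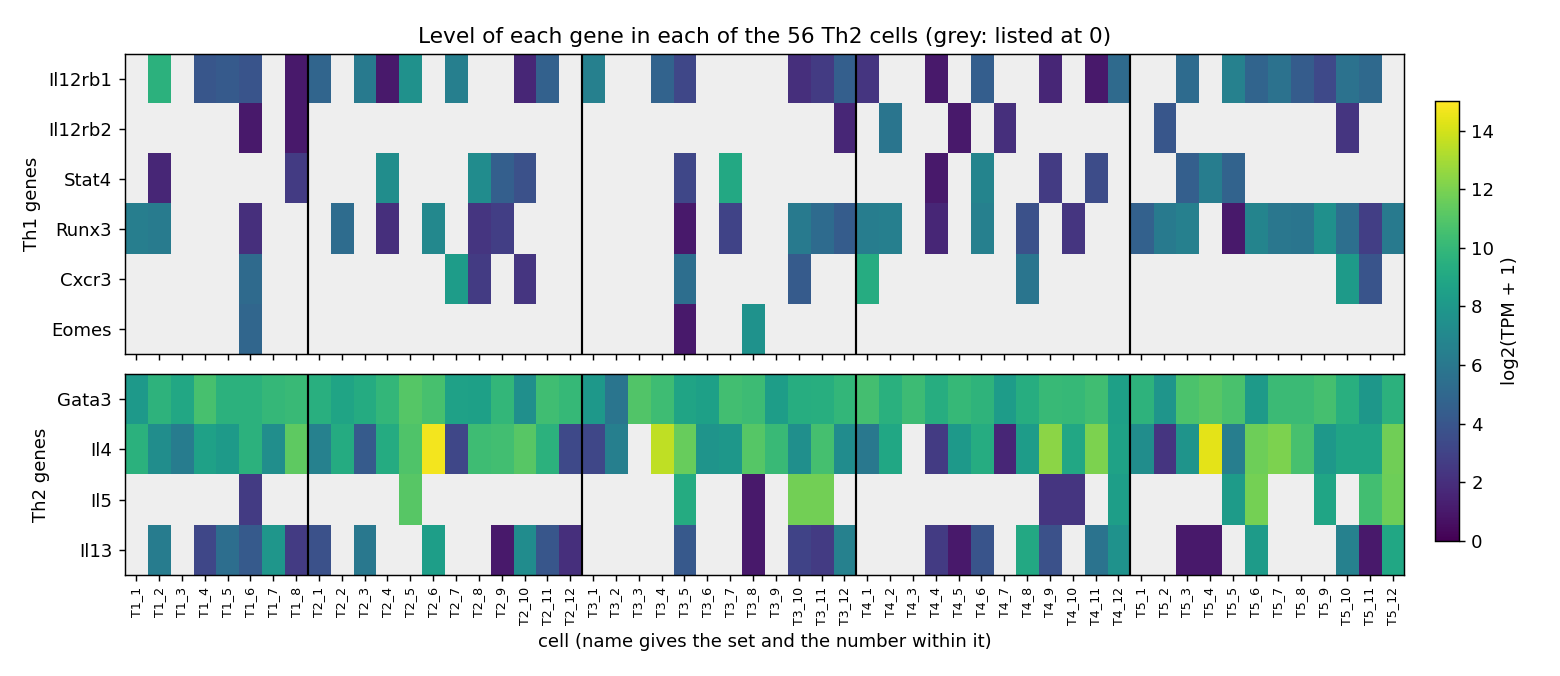
Level of the 6 Th1 genes (top) and of Gata3, Il4, Il5 and Il13 (bottom) in each of the 56 cells, as log2(TPM + 1) in colour, with grey for values listed at 0 and black lines between sets. Gata3 fills its whole row, Il12rb1 and Runx3 about every other cell, and the other 4 Th1 genes a few cells each.

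The shared chain of the interleukin-12 receptor was common and its partner chain was rare. Il12rb1 was detected in 32 of 56 cells (57.1%, 95% interval 43.2 to 70.3), with a lowest detected value of 1 TPM, a median of 21.5 TPM among those cells and a highest of 811 TPM. Of these cells 21 were at 10 TPM or more, and only T1_2 (811 TPM) and T2_5 (189 TPM) were above 100 TPM. Il12rb2, the chain that makes a cell responsive to interleukin-12, was detected in 8 cells (14.3%, 6.38 to 26.2). Its values were 55 TPM in T4_2, 15 in T5_2, 4 in T5_10, 3 in T4_7, 2 in T3_12 and 1 each in T1_6, T1_8 and T4_5. Thus 6 of the 8 Il12rb2 cells were below 5 TPM, close to the rounding limit of the table.

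Both receptor chains were found together in 4 cells (7.14%, 1.98 to 17.3), against 4.57 cells given by the product of the 2 shares. These were T1_6, T1_8, T3_12 and T5_10, and in each of them Il12rb2 was at 4 TPM or less. At 10 TPM or more, 0 of 56 cells held both. Only 2 cells had Il12rb2 at that level, so this count had little room to be higher. Taken as 3 counts in 56 cells, a count of 0 allows a share of up to 5.36%, and the exact 95% interval reaches 6.38%. The cells with the most Il12rb2, T4_2 and T5_2, had Il12rb1 listed at 0. Both chains with Stat4 were detected in 1 cell only, T1_8, at 1, 1 and 5 TPM.

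Stat4, which carries the interleukin-12 signal to the nucleus, was detected in 15 cells (26.8%, 15.8 to 40.3). Its values ran from 1 TPM in T4_4 to 539 TPM in T3_7, with a median of 22 TPM among the 15 cells. The next highest cells were T2_4 at 161 TPM, T2_8 at 153 TPM and T4_6 at 110 TPM. Of the 15 Stat4 cells, 11 also held Il12rb1 (73.3%), against 8.57 given by the product of shares. At 10 TPM or more both were in 3 cells, T4_6, T5_3 and T5_5.

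Of the transcription factors, Runx3 was widespread and Eomes was in very few cells. Runx3 was detected in 30 cells (53.6%, 39.7 to 67.0) at 1 to 182 TPM, with a median of 40.5 TPM among those cells, the highest such median of the 6 genes. Its highest cells, T5_9 (182 TPM), T2_6 (126 TPM) and T5_6 (106 TPM), were followed by T4_6 at 91 TPM, with no single cell far above the rest. Eomes was detected in 3 cells (5.36%, 1.12 to 14.9), at 196 TPM in T3_8, 30 TPM in T1_6 and 1 TPM in T3_5. T3_8 held none of the other 5 genes, whereas T1_6 and T3_5 held 4 others each.

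The chemokine receptor Cxcr3 was in 10 cells (17.9%, 8.91 to 30.4), and mostly at levels well off the rounding limit. The values were 635 TPM in T4_1, 314 in T2_7, 291 in T5_10, 55 in T4_8, 41 in T3_5, 35 in T1_6, 19 in T3_10, 14 in T5_11, 5 in T2_8 and 4 in T2_10. Of these 10 cells, 9 were at 5 TPM or more, against 2 of the 8 cells with Il12rb2. Of the 10 Cxcr3 cells, 8 also held Runx3 (80%; 26.7% of the Runx3 cells), against 5.36 given by the product of shares, and 8 held Il12rb1 (25% of the Il12rb1 cells), against 5.71.

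Over all 56 cells, mean levels were 32.4 TPM for Il12rb1 (SD over cells 111), 26.2 for Runx3 (SD 41.3), 25.2 for Cxcr3 (SD 101), 20.6 for Stat4 (SD 78.2), 4.05 for Eomes (SD 26.4) and 1.46 for Il12rb2 (SD 7.58). Every gap between neighbours in this order is smaller than the SD of either gene. The median cell held 1.5 TPM of Il12rb1 and of Runx3 and 0 of the other 4.

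The mean levels rested largely on single cells, except for Runx3. Cell T1_2 held 44.8% of the Il12rb1 total, T3_7 46.6% of Stat4, T4_1 44.9% of Cxcr3, T4_2 67.1% of Il12rb2 and T3_8 86.3% of Eomes. The highest Runx3 cell held 12.4%. A share of 40% or more in 1 cell was thus found for 5 of the 6 genes, and for 32.6% of all 10565 genes. This share falls with the number of cells in which a gene is detected. Among other genes in the same number of cells the median was 17.6% for Il12rb1, 32.7% for Stat4, 41.9% for Cxcr3, 49.1% for Il12rb2, 80.9% for Eomes and 19.4% for Runx3. Il12rb1 lay furthest above its own comparison value, and Runx3 below it.

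Without each gene's highest cell, the order of means became Runx3 at 23.4 TPM (SD 35.7), Il12rb1 at 18.2 (SD 34.1), Cxcr3 at 14.2 (SD 57.5), Stat4 at 11.2 (SD 34.1), Eomes at 0.564 (SD 4.05) and Il12rb2 at 0.491 (SD 2.13). The first place of Il12rb1 by mean therefore rested on T1_2. For Cxcr3, 3 cells together held 87.8% of the total, and for Stat4 73.8%.

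**Figure D2:**
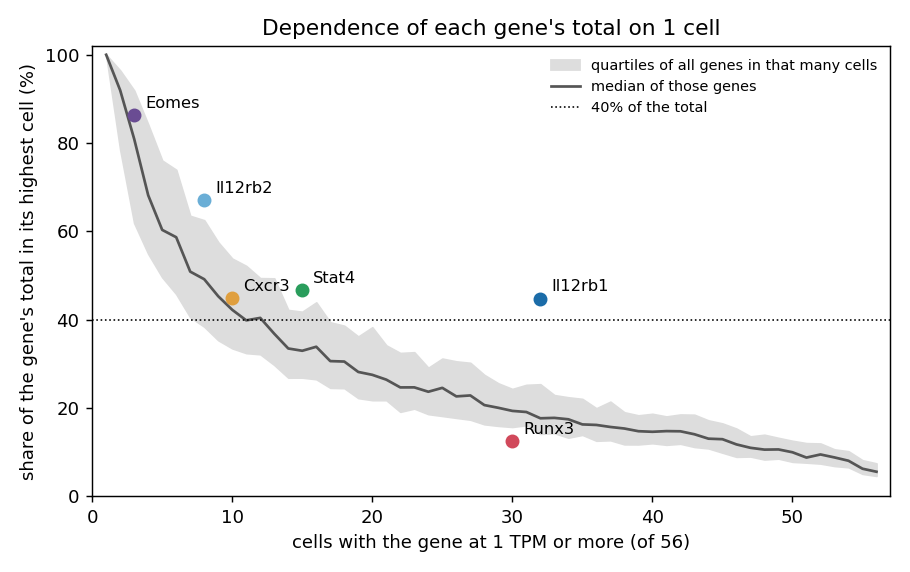
Share of a gene's summed TPM that lies in its highest cell (vertical, %), against the number of cells in which the gene was detected (horizontal). The line and grey band are the median and quartiles of all genes in that many cells, and the dotted line is 40%. Il12rb1 at 44.8%, Il12rb2 at 67.1% and Stat4 at 46.6% lie above the band, and Runx3 lies below it at 12.4%.

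Most cells held at least 1 of the 6 genes and few held more than 3. None was detected in 8 cells, 1 in 19 cells, 2 in 13, 3 in 13, 4 in 1 and 5 in 2, and 0 of 56 cells held all 6. The mean was 1.75 genes per cell (SD 1.22). Cells with 2 or more numbered 29 (51.8%, 38.03 to 65.34), against 32.7 given by the product of the single shares. Cells with 3 or more numbered 16 (28.6%, 17.3 to 42.2), against 12.2. Both product values lie inside these intervals. By exact number, fewer cells than the product held 2 genes (13, against 20.5), and more held 3 (13, against 9.84) or none (8, against 5.44). For exactly 2 genes, and for exactly 5 (2 cells, against 0.205), the product value lies just outside the exact interval. At 10 TPM or more, 30.4% of cells held 2 or more and 7.14% held 3 or more. Most joint detection of 3 or more genes therefore included a value below 10 TPM.

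The most frequent state was Il12rb1 alone in 9 cells, followed by none of the genes in 8. Runx3 alone was found in 6 cells. Il12rb1 with Stat4 and Runx3 was found in as many, 6 cells, T1_2, T2_4, T4_4, T4_6, T5_3 and T5_5, and Il12rb1 with Runx3 in 5. Il12rb1 with Runx3 and Cxcr3 was found in T3_10, T4_1 and T5_11. The cell T5_10 held 4 genes, at 50 TPM for Il12rb1, 4 for Il12rb2, 43 for Runx3 and 291 for Cxcr3.

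The 2 cells with 5 of the 6 genes were the 2 with the most genes detected. T3_5, with 8396 genes, held Cxcr3 at 41 TPM, Il12rb1 and Stat4 at 8 each, and Runx3 and Eomes at 1 each. T1_6, with 6983 genes, held Cxcr3 at 35 TPM, Eomes at 30, Il12rb1 at 14, Runx3 at 3 and Il12rb2 at 1. T3_5 also held 70.4% of the other genes found in 10 cells, as Cxcr3 was. Of those found in 3 cells, as Eomes was, it held 27.8%. T1_6 held 36.3% and 13.9% of these genes, and 31.6% of the other genes found in 8 cells, as Il12rb2 was. For comparison, a gene in 10 cells is in 17.9% of all cells, 1 in 8 cells in 14.3% and 1 in 3 cells in 5.36%. T3_5 was also the only cell with the CD8 marker Cd8b1. No doublet caller was run, and whether either of these libraries holds more than 1 cell was not tested. What part the high number of genes detected had in their 5 genes was not tested. Without T3_5 and T1_6, Eomes was in 1.85% of cells, T3_8 alone.

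Over all cells, the number of the 6 genes held had a rho of 0.39 with the number of genes detected, or 0.32 without T3_5 and T3_2. Within sets T1 to T5 it was 0.47, 0.17, 0.58, 0.17 and 0.33. Both numbers come from the same libraries and share their detection limit. The 8 cells with none of the 6 genes had a median of 3898.5 genes detected, against 4765.5 in the 48 cells with at least 1.

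**Figure D3:**
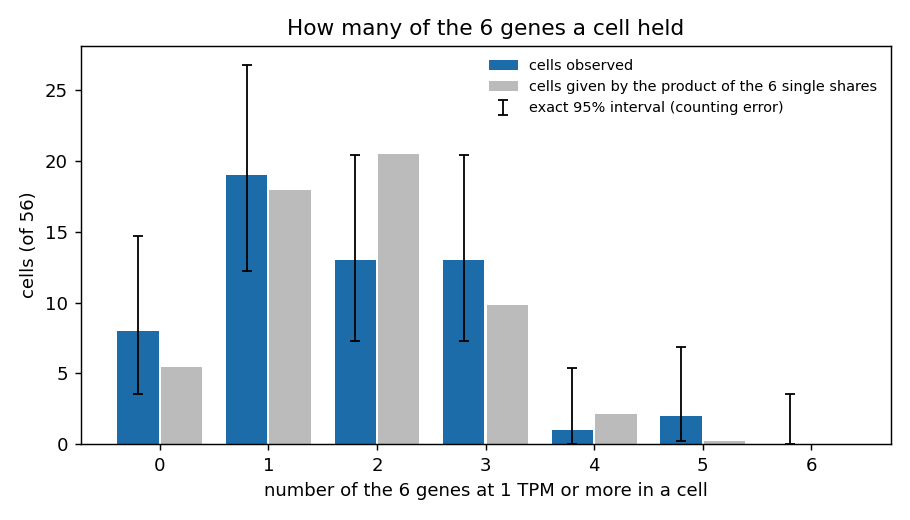
Number of cells (vertical) that held 0 to 6 of the genes (horizontal). Blue bars are the observed cells with exact 95% intervals, and grey bars are the cells given by multiplying the 6 single shares. Observed cells exceed the product at 0, 1, 3 and 5 genes (2 against 0.205 at 5) and lie below it at 2 and 4.

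Pair by pair, the levels of the 6 genes showed little joint variation. Over the 15 pairs, Spearman's rho ran from -0.16 (Il12rb2 with Stat4) to 0.29 (Cxcr3 with Eomes), with a median of 0.05, and 0 pairs reached 0.3 or -0.3. How many of all gene pairs reach these values was not computed. At 1 TPM or more, 13 of the 15 pairs were found together in more cells than the product of shares gives. The part of genes detected in this was not tested. At 10 TPM or more, 7 pairs were never found together. Il12rb2 and Eomes each reached that level in only 2 cells, which leaves little room for pairs with either of them. Eomes met each of the other 5 genes only in T1_6 and T3_5, the cells with the most genes detected. The rho of Cxcr3 with Eomes was 0.17 without T3_5 and T3_2. Il12rb1 and Il12rb2 had a rho of -0.09, Il12rb1 and Stat4 0.02, and Il12rb1 and Runx3 0.05. By set the last value ran from -0.75 in T2 to 0.25 in T3.

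Runx3 was most frequent in set T5. It was in 11 of 12 cells of T5 (91.7%, 61.5 to 99.8), in 6 of 12 of T4, 5 of 12 each of T3 and T2, and 3 of 8 of T1. In T5 the median was 58.5 TPM, against 0 TPM over the other 44 cells. The share of cells with Runx3 was 48.5 percentage points higher in T5 than in the other sets together. A difference of 40 points or more in this direction was found for 0.356% of the 7871 genes in at least 10 cells. The other 5 Th1 genes differed by -6.82 to 12.1 points. This comparison was chosen after the values were seen. The median cell of T5 had 4789.5 genes, close to the 4272.5 to 4837 of the other sets. Il12rb1 was in 8 of 12 cells of T5 and in 50.0 to 62.5% of cells in the other sets. Set number and any batch cannot be told apart.

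To ask how the Th1 genes relate to the Th2 programme, each was compared with Gata3. Most of the Th1 genes were found at high as well as low Gata3. Cells with Il12rb1 had Gata3 at 175 to 2088 TPM (median 845), and cells without it at 55 to 2178 TPM (median 802.5). Cells with Stat4 had a median of 974 TPM of Gata3, and cells without it 783 TPM. For Runx3 the medians were 804 TPM in cells with it and 1038 TPM in cells without it. For Il12rb2 they were 765.5 TPM in the 8 cells with it and 849 TPM in the others. The ranges overlapped in each case.

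Cxcr3 was the gene found with the least Gata3. The 10 Cxcr3 cells had Gata3 at 175 to 1446 TPM with a median of 541.5 TPM, against 55 to 2178 TPM and a median of 977.5 TPM in the 46 cells without it. Gata3 was above the median of all cells in 1 of the 10 Cxcr3 cells and in 27 of the 46 others. The exception was T4_1, which had both the highest Cxcr3 (635 TPM) and a Gata3 of 1446 TPM. The rho of Cxcr3 with Gata3 was -0.28, at percentile 3.05 of all genes, and -0.37 without T4_1. Within sets T1 to T5 it was -0.25, -0.73, -0.13, 0.18 and -0.44.

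The other rho values with Gata3 were 0.19 for Stat4, 0.07 for Il12rb1, 0.00 for Runx3, -0.01 for Eomes and -0.14 for Il12rb2. Within sets, that of Stat4 ran from -0.35 in T2 to 0.75 in T5. Of the 4 members in at least 10 cells, 0 reached 0.3 and 0 reached -0.3, against 1.03% and 2.31% of 7870 genes. These counts depended on the cells used: without set T2 the rho of Stat4 was 0.38, and without T5 it was 0.03. For Cxcr3 it was -0.38 without set T4, -0.32 without T3, -0.18 without T2 and -0.31 without the cell T3_2. For the number of the 6 genes held the rho with Gata3 was -0.03, and within sets it ran from -0.59 in T2 to 0.21 in T3.

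**Figure D4:**
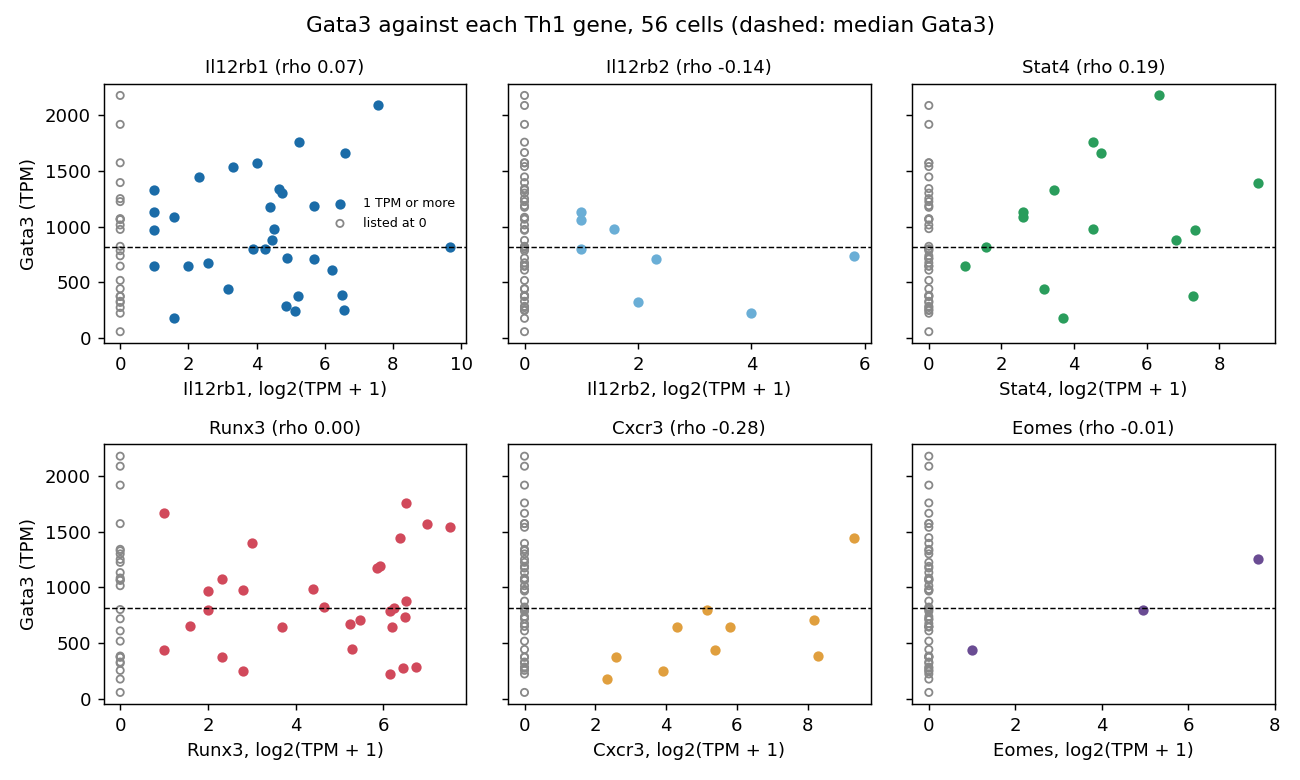
Gata3 in TPM (vertical) against the level of each Th1 gene as log2(TPM + 1) (horizontal) in the 56 cells. Filled points are cells at 1 TPM or more, open points cells listed at 0, and the dashed line is the median Gata3 of 818 TPM. Of the 10 Cxcr3 cells, 9 lie below the line, while the cells with Il12rb1 (175 to 2088 TPM) and Runx3 (221 to 1758 TPM) lie on both sides of it.

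Th1 and Th2 genes were found in the same cells. All 48 cells with at least 1 of the 6 genes had Il4, the defining Th2 cytokine, as did 6 of the 8 cells with none. Il4 was in 54 of 56 cells in all, which leaves little room for another outcome. Il5, the eosinophil growth factor, was in 11 of the 32 Il12rb1 cells (34.4%; 78.6% of the Il5 cells), against 8 by the product of shares. It was in 14 of all 56 cells, and in 0 of the 8 cells with none of the 6 genes. These 8 cells had a median of 3898.5 genes detected, against 4765.5 in the others, and 2 of them had Il13. Il13, which acts on epithelium, was in 22 of the 32 Il12rb1 cells (68.8%), against 17.7, and in 16 of the 30 Runx3 cells, against 16.6.

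The 3 Eomes cells held all of Il4, Il5 and Il13. In T3_8, the cell with the most Eomes, Il4 was at 2132 TPM and Il5 and Il13 at 1 TPM each. In T1_6 the values were 803, 5 and 18 TPM, and in T3_5 2941, 604 and 17 TPM. The product of shares gives 0.75 cells with both Eomes and Il5. Without the gene-rich T3_5 and T1_6, the overlap rests on T3_8 alone. Stat4 cells had a median of 1271 TPM of Il4, and cells without Stat4 310 TPM. Both groups ranged widely, and the rho of Stat4 with Il4 was 0.24.

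Against a score over 11 Th2 cytokines (the mean of z-scored log2(TPM + 1)), only Cxcr3 of the 4 members in at least 10 cells passed a rho of 0.3, at 0.38. A rho this high was found for 7.54% of 7860 genes, and one of -0.3 or lower for 0.267% of genes and for none of the 4. For Cxcr3 it was 0.26 as a partial rho on genes detected, and within sets it ran from 0.05 in T2 to 0.59 in T3. With Il4, Il5 and Il13 taken singly, the rho of Cxcr3 was -0.01, 0.15 and 0.16. The score itself had a rho of 0.53 with genes detected. With genes detected, Cxcr3 had a rho of 0.33, and it was the only 1 of the 4 above 0.3, against 21.2% of 7871 genes. The part of genes detected in the relation of Cxcr3 to the score was not otherwise tested. The values with the score were 0.16 for Runx3, 0.15 for Eomes, 0.10 for Stat4, 0.03 for Il12rb1 and -0.11 for Il12rb2.

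The number of Th1 genes held and the number of the 11 Th2 cytokines held had a rho of 0.23, or 0.06 as a partial rho on genes detected. Within sets it ran from -0.27 in T5 to 0.62 in T3. Cells with 2 or more Th1 genes held a median of 8 Th2 cytokines (4 to 11), and the others 7 (3 to 10).

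**Figure D5:**
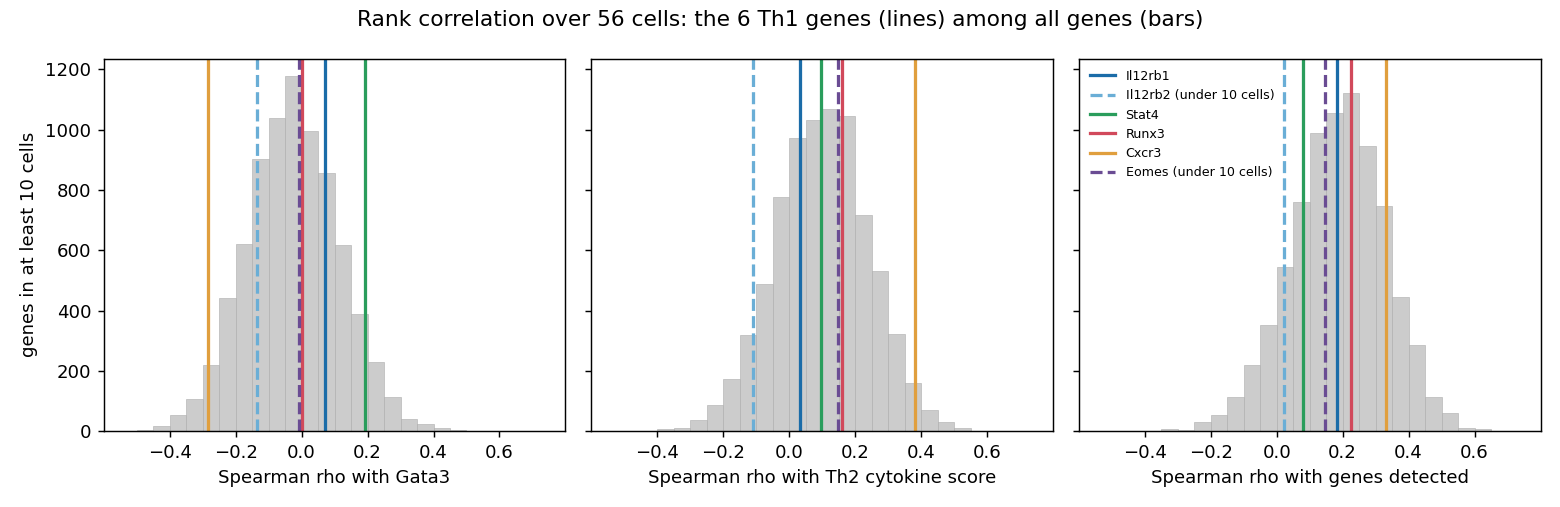
Spearman's rho over the 56 cells with Gata3 (left), the Th2 cytokine score (middle) and the number of genes detected (right). Bars count all genes in at least 10 cells, and coloured lines mark the 6 Th1 genes, dashed where a gene was in fewer than 10 cells. Cxcr3 lies lowest for Gata3 (-0.28) and highest for the score (0.38) and for genes detected (0.33).

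Partners of the interleukin-12 pathway differed widely in how often they were found. The kinase Jak2, which works with Il12rb2, was in all 56 cells at a mean of 217 TPM (SD 189). Tyk2, the kinase of Il12rb1, was in 20 cells (14.4 TPM), of which 10 also held Il12rb1, against 11.4 by the product of shares. Of the 15 Stat4 cells 9 held Tyk2, against 5.36. Jak1 was in 52 cells (64.3 TPM) and Stat3 in 37 (46.2 TPM). The interferon gamma receptor chains Ifngr1 and Ifngr2 were in 20 and 21 cells (28.9 and 21.1 TPM), and the interferon-induced factor Irf1 in 33 (98.6 TPM).

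Further receptors were at the level of the 6 genes or below. Il18rap, a chain of the interleukin-18 receptor, was in 33 cells (27.7 TPM), and its partner Il18r1 in 4 (2.29 TPM), with 119 TPM in T1_2, which was also the highest Il12rb1 cell. Il27ra was in 20 cells (17.3 TPM) and Il6st in 9 (1.29 TPM). The feedback inhibitor Socs1 was in 11 (2.02 TPM). Of the 13 genes of this list in the table, 11 were in at least 10 cells. Of these, Il18rap passed -0.3 with Gata3 (-0.31), against 2.31% of all genes. With the Th2 cytokine score Il18rap (0.42) and Ifngr1 (0.32) passed 0.3, against 7.54% of all genes. The median rho with Gata3 was 0.04, against -0.03 over all genes.

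Other genes associated with Th1 cells often had a high mean level, and many of them belong to activated T cells in general. The highest by mean were the transcriptional inhibitor Id2 (3630 TPM in 56 cells), granzyme B (Gzmb, 3241 TPM in 49) and the growth factor Il2 (1560 TPM in 39). The inhibitory receptor Havcr2, known as Tim-3, was in 54 cells (417 TPM), Bhlhe40 in 52 (392 TPM), lymphotoxin Lta in 48 (199 TPM), Zeb2 in 46 (17.5 TPM) and Runx1 in 42 (38.6 TPM). Cbfb, the partner of all Runx factors, was in 40 cells (29.3 TPM), among them 24 of the 30 Runx3 cells, against 21.4 by the product of shares. The death ligand Fasl was in 30 cells (63.8 TPM), Tnf in 24 (72.1 TPM) and Prdm1 in 12 (20.8 TPM). The median cell held 3233 TPM of Id2 and 1219.5 of Gzmb, but 2.5 of Il2, 1 of Fasl and 0 of Tnf and Prdm1. T4_1 held 36.5% of the Il2 total, and T5_4 held 48.2% of that of Prdm1. Of the 12 of these in at least 10 cells, Id2 passed 0.3 with Gata3 (0.42), and Lta (-0.37) and Fasl (-0.30) passed -0.3, against 1.03% and 2.31% of all genes. With the Th2 cytokine score Tnf (0.43), Lta (0.41) and Zeb2 (0.31) passed 0.3, against 7.54% of all genes. All 3 also passed 0.3 with genes detected, at 0.35 for Tnf, 0.33 for Lta and 0.30 for Zeb2, and the part of genes detected in their relation to the score was not tested.

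Among markers of cells that could stand for another source of these genes, 4 of the 11 CD8 T and NK cell markers were analysed here. Cd8b1 was in 1 cell (24 TPM in T3_5), Nkg7 in 24, Gzma in 13 and Xcl1 in 32. Their summed level was 0 to 2984 TPM (median 11) in the 29 cells with 2 or more Th1 genes and 0 to 5595 TPM (median 14) in the other 27. Runx3 was found with Gzma in 11 of the 13 Gzma cells, against 6.96 by the product of shares, with Nkg7 in 17 of 24, against 12.9, and with Xcl1 in 17 of 32, against 17.1. The rho of Runx3 was 0.24 with Gzma, 0.23 with Nkg7 and 0.03 with Xcl1. Cxcr3 was found with Gzma in 5 cells, against 2.32, with Nkg7 in 6, against 4.29, and with Xcl1 in 5, against 5.71. Eomes was found with each of these in 2 of its 3 cells, against 0.696 for Gzma, 1.29 for Nkg7 and 1.71 for Xcl1. With genes detected, the rho was 0.37 for Gzma, 0.39 for Nkg7 and -0.20 for Xcl1. Of the 7 B cell markers, 1 was analysed here. This was Cd74 (32 cells), at 0 to 250 TPM (median 19) in the 29 cells and 0 to 672 TPM (median 0) in the other 27. Of 8 myeloid, 6 mast cell and basophil, and 6 erythroid and platelet markers, only 1 each was found in the table, in 10, 5 and 2 cells. Most markers of these other cell types could therefore not be looked at. Their part in the Th1 genes was not tested.

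Genes whose levels followed a Th1 gene most closely were sought among 7870 genes in at least 10 cells, by rho over the 56 cells. For Runx3 the nearest was Ifngr2, at a rho of 0.65. Of the 21 Ifngr2 cells, 20 also held Runx3, against 11.3 by the product of shares, and at 10 TPM or more both were in 12 cells. Ifngr2 too was more frequent in T5, in 10 of 12 cells against 11 of the other 44. With ranks centred by set the rho was 0.55, and within sets T1 to T5 it was 0.55, 0.11, 0.60, 0.80 and 0.63. The receptor chaperone Lrpap1 (0.52) was also among the 3 nearest.

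For Il12rb1 the nearest was Ccpg1 (0.58), with 17 of its 18 cells also holding Il12rb1, against 10.3 by the product of shares. Within sets its rho was 0.54 to 0.77. Pgrmc2 and Kcnab2 followed at 0.52 each. For Stat4 the nearest were 0610007C21Rik (0.54), the transcription factor Elf4 (0.50) and the entry mir684_1_dup2 (0.49), which averaged 1.57 TPM. For Cxcr3 they were Fam169b (0.57), 2310003H01Rik (0.55) and the translation repressor Eif4ebp3 (0.54), each with 7 of the 10 Cxcr3 cells. The largest of 7870 values is high by selection, so these are given as descriptions. Il12rb2 and Eomes were in too few cells for this search.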

How the data were processed

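RNA sequencing values of 56 single Th2 cells were used. The authors deposited 1 table of TPM values that they had rounded to whole numbers, treated here as a score. Column sums of 999202 to 999914 and the absence of decimals show this. The submitters' processing notes name mm9 as the build and list Bowtie 0.12.2, Cufflinks and FastQC without saying what each did. Every gene in the table reached at least 5 TPM in some cell. Depth per cell is unknown. Gene names and chromosomes were matched to RefSeq GRCm38.p6, and no coordinates were used.

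Python 3.11.15, numpy 2.4.6, scipy 1.17.1 and pandas 2.3.3 gave all values. Spearman's rho was taken over cells for the 7871 genes detected at 1 TPM or more in at least 10 cells. The functions were tested on simulated data. A rho of 0.3 or -0.3, and 40% of a total in 1 cell, were the thresholds used. The product of shares multiplies the shares of cells of single genes. The members, lists, thresholds and alternatives were chosen with earlier results of these data known. Alternatives were other detection thresholds, leaving out a set or a cell (T1_6, and T3_5 with T1_6, were added after seeing the data), Pearson's r, ranks centred by set, a partial rho on genes detected and a rescaling without the 10 genes of highest mean. No column of per-sample values was left unused. Named genes were the 6 members, the genes of the 2 Th1-related lists and the 3 most alike genes per member (a few of these are not reported here), and, from the other lists, mainly the genes of highest mean. The comparison of set T5 was chosen after its values were seen.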

Additional observations from a re-analysis of the deposited data

How the results depend on the processing

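The number of Th1 genes per cell depended on the detection threshold. Cells with 3 or more were 28.6% at 1 TPM, 10.7% at 5 TPM and 7.14% at 10 TPM, and cells with 2 or more were 51.8% at 1 TPM and 30.4% at 10 TPM. Leaving out any set kept both shares within their intervals. So did leaving out T3_5, T3_2, T1_2 or T1_6, but 1 of 56 cells can move a share only slightly. Without T1, the highest cell held 19.8% of the Il12rb1 total, and without T3 26.4% of Stat4. As a share of summed log2(TPM + 1) the highest cell held 7.14% of Il12rb1, 31.0% of Il12rb2, 13.2% of Stat4, 5.38% of Runx3, 16.8% of Cxcr3 and 56.1% of Eomes, since the log shrinks high values. The rho of the number of genes held with Gata3 ran from -0.09 to 0.07 over 15 alternatives, and with Th2 cytokines from 0.05 (without T3) to 0.32 (without T5). For Cxcr3 it ran from -0.38 to -0.07 with Gata3 and from 0.20 to 0.48 with the Th2 cytokine score, keeping its sign in all 15. The lowest sizes came with Pearson's r and a pseudocount of 10. Leaving out T3_5 and T1_6 was chosen after seeing the data, and the rho of Eomes with the score was then -0.06. Unknown depth and 56 cells limit all shares. No paired analysis was possible because the cells form 1 group.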

Other observations

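Genes typical of naive T cells were still present in many of the cells, and the cell with the most Stat4 stood out among them. All 9 genes of the list were in the table, from Foxp1 in 54 cells (102.9 TPM on average) and the interleukin-7 receptor Il7r in 50 (143.5 TPM) to Tcf7 and Klf2 in 6 cells each. T3_7, with the highest Stat4 (539 TPM), was also the highest cell for the lymph node homing receptor Ccr7 (928 TPM), for the transcription factor Tcf7 (252 TPM, 84.3% of its total) and for the egress receptor S1pr1 (89 TPM). T2_4, the cell with the next highest Stat4 (161 TPM), was the highest for Il7r (1045 TPM). These cells were singled out after their values were seen, and nothing was tested. With the number of the 6 Th1 genes held, the rho of the naive genes had a median of 0.12 over the 9 genes.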
